A study of Mus musculus with 12 samples.

Results

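The Krüppel-like factors examined were Klf2, Klf3, Klf4, Klf5, Klf6, Klf7, Klf10, Klf11, Klf13 and Klf16, 10 of the 17 Klf genes that had a locus among the 20989 loci of each library. The list was chosen on the FPKM values of cocktail-treated against control slices, in which Klf4 stood out, so the differences between both conditions are given for these genes as a description and are not offered as evidence for their selection. All 10 genes had an FPKM with an OK status in all 12 libraries and all 10 passed the minimum mean FPKM of 1, which 12032 loci passed. FPKM counts the fragments of a gene relative to the length of its transcript in kilobases and to all fragments on protein coding genes of the library, so it can be compared between genes.

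The libraries came from the auditory cortex of 6 C57bl6/J mice of 4 weeks of age, with the hemispheres of an acute brain slice separated at the midline. One hemisphere of each mouse was kept for 1 h in control aCSF, and the other for 1 h in aCSF with 50 µM bicuculline methiodide, a blocker of GABA-A receptors, 100 µM norepinephrine, 50 µM carbamoylcholine, 100 µM dopamine, 40 µM ascorbic acid and 100 µM serotonin, giving 6 control and 6 cocktail libraries. The agents were given together, so their parts cannot be told apart, and which side was treated is not given in the sources used here. The methods add a resting phase of 1 h in plain aCSF for all hemispheres, after the incubation and before the tissue was taken, which the sample labels leave out. The RNA is from bulk tissue, in which more cells of a type and more RNA per cell cannot be told apart.

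Krüppel-like factors are transcription factors that bind GC-rich and CACCC elements with zinc fingers at the C-terminal end, close relatives of the Sp factors. They fall into a group of mostly activating factors (here Klf2, Klf4, Klf5, Klf6 and Klf7), a group of repressors that recruit the corepressor CtBP (here Klf3), and a group that binds the corepressor Sin3 (here Klf10, Klf11, Klf13 and Klf16). In neurons several of them are known for opposite roles in axon growth, which Klf6 and Klf7 promote and Klf4 and Klf9 restrain, while Klf2 and Klf4 are best known from the endothelium, where blood flow induces them through the kinase Erk5 and Mef2 factors.

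In control slices, Klf13 had the highest level of the 10 genes, with 46.4 ± 2.45 FPKM (SD, n = 6), and Klf5 the lowest, with 5.29 ± 0.311 FPKM. Klf6 followed Klf13 with 30.2 ± 4.87 FPKM, and the ranges of these genes did not overlap. Klf16 (24.0 ± 2.55 FPKM), Klf10 (23.6 ± 6.12 FPKM), Klf4 (16.8 ± 3.28 FPKM), Klf2 (11.6 ± 2.29 FPKM) and Klf7 (11.0 ± 0.972 FPKM) came next, and each of them overlapped its neighbor in this order. Klf11 (6.13 ± 0.746 FPKM), Klf3 (5.67 ± 0.341 FPKM) and Klf5 lay below the range of Klf7 and overlapped each other.

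In cocktail-treated slices, Klf4 moved from the fifth to the third place with 37.2 ± 5.23 FPKM (SD, n = 6), above every value of Klf10 (23.6 ± 5.32 FPKM). Its range overlapped that of Klf6 (42.8 ± 5.00 FPKM), which in turn overlapped that of Klf13 (44.7 ± 3.93 FPKM). Klf5 moved from the last place to the eighth (7.42 ± 1.36 FPKM) and Klf11 (6.39 ± 1.53 FPKM) took the last. The FPKM of the 10 genes added up to between 175.6 and 187.4 in control libraries and to between 197.9 and 226.5 in cocktail libraries, and the sum was higher in the cocktail hemisphere of all 6 mice. Klf4 alone contributed 9.32% ± 1.87 (SD, n = 6) of this sum in control and 17.3% ± 1.98 in cocktail libraries. The share of Klf6 was 16.75% ± 2.82 in control and 19.87% ± 1.76 in cocktail libraries. The mean FPKM rose by 20.4 for Klf4 and 12.6 for Klf6, and by at most 2.13 (Klf5) for any other of the 10 genes. Levels per length depend on the transcript model. The reads behind the FPKM values imply a length of 6.33 kb for Klf13, against 6396 bases of its transcript in GENCODE M21, but of 1.44 kb for Klf7, 2.26 kb for Klf3 and 1.43 kb for Klf5, against 7662, 5221 and 3352 bases. For Klf2 the implied length was 1.26 kb against 1847 bases, and for Klf16 it was 2.12 kb against 2674 bases. For Klf10 it was the longer one, with 2.95 kb against 2144 bases. Klf10 has more than a single RefSeq transcript, and the length of only a single one was compared. A shorter length gives a higher FPKM for the same reads. The places of Klf7, Klf3, Klf5, Klf2, Klf16 and Klf10 in the order therefore depend on the model. Comparisons of a gene with itself do not.

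**Figure D1:**
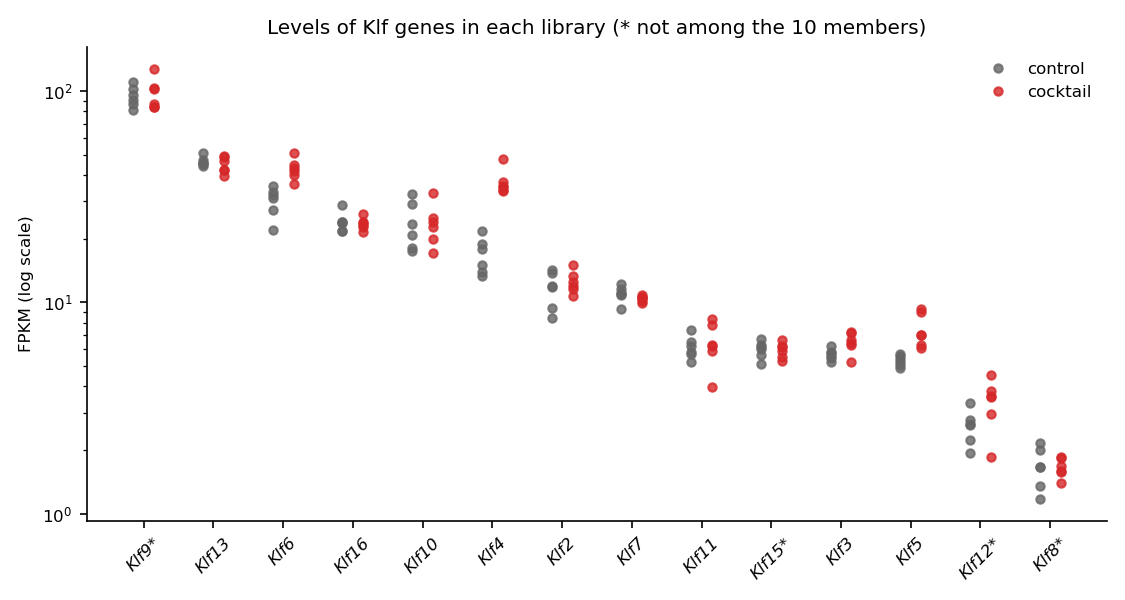
FPKM in every control (gray) and cocktail (red) library, on a log axis, of the Klf genes whose mean over the 12 libraries was at least 1, ordered by the mean in control slices, with genes outside the 10 examined marked by an asterisk. The red points of Klf4, Klf6 and Klf5 lie above all gray points of the same gene.

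The promoters of 7 of the 10 genes were at hand in RefSeq (GRCm38.p6), those of Klf2, Klf3, Klf4, Klf6, Klf7, Klf11 and Klf13, each with the start of the locus in the files, except that the start of Klf3 lies 2 bases before it. The 250 bases before the start are shown for Klf4 and Klf6, the genes with the largest differences between the conditions, and for Klf2. Klf2 is among several of the 10 genes whose mice differed in direction. Capitals mark matches to the Klf box, TGACG and the Mef2 box on either strand.
Klf4 (chr4:55532476-55532725, minus strand): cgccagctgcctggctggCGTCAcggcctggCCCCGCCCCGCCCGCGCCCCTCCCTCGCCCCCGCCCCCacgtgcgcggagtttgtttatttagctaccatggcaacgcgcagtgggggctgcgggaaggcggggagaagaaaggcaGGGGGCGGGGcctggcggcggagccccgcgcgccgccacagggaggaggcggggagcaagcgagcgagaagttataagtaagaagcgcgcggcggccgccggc
Klf6 (chr13:5861239-5861488, plus strand): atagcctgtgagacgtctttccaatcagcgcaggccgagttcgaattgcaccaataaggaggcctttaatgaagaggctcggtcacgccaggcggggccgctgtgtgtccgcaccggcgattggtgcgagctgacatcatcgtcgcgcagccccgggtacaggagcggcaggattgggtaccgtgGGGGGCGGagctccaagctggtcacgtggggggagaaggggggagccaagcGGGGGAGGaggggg
Klf2 (chr8:72318812-72319061, plus strand): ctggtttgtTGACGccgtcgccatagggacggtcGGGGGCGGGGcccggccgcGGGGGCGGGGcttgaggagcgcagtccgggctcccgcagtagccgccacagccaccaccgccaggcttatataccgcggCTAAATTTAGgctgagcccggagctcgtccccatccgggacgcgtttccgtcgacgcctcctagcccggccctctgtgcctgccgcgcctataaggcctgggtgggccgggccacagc

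These windows are rich in G and C, with 74.0% in Klf4, 64.8% in Klf6 and 71.2% in Klf2, against a median of 52.4% over 32851 promoter windows of 27025 genes. The Klf box CCNCNCCC, a form of the element that the family itself binds, matched 9 times in Klf4, 4 times in Klf2, 2 times in Klf6 and at least once in all 7 windows, and it was found in 45.9% of all windows. It overlaps the GC box GGGCGG, which all 7 windows and 32.7% of all windows held. In Klf4, 7 of the 9 Klf boxes lay between bases -219 and -182 from the start, each overlapping the next. The CRE half-site TGACG, of the element through which CREB responds to cAMP and calcium, was found in Klf4 (bases -232 to -228), Klf2 (-241 to -237) and Klf13 (-56 to -52), and in 17.8% of all windows. The full CRE TGACGTCA was in 0 of the 7 and in 1.55% of all windows, AP-1 TGANTCA in 0 and 6.75%, TATAAA in 0 and 12.4%, and the CArG box of Srf in 0 and 1.47%. The Mef2 box was found only in Klf2 among the 7, at bases -118 to -109, and in 2.92% of all windows. The Egr box GCGNGGGCG, which can share bases with the GC box and the Klf box, was found in Klf2, Klf3 and Klf4 and in 4.70% of all windows. A match is a sequence and not a measured site, and no match says only that these letters are not in the window.

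Of the activating group, Klf4 had the largest difference between cocktail-treated and control slices. Klf4 (mm10 chr4:55527137-55532475, minus strand) is one of the factors that can reprogram cells to pluripotency and acts in endothelium and epithelia as a factor of quiescence and differentiation. Its FPKM had a lowest value of 13.3, a median of 16.5 and a highest value of 21.8 in control, and 33.8, 35.3 and 47.6 in cocktail libraries. All 6 cocktail values lay above all control values, and within mice the ratio of cocktail to control was 1.86 in mouse 6 to 2.55 in mouse 1. The log2 fold change on the log2(FPKM + 1) scale, which understates changes of genes with low FPKM, was 1.11 (standard error, SE, 0.062). Between 547 and 1978 reads lay behind each value, which gives a counting error of 2.25% to 4.28%, against a coefficient of variation of 19.5% between control and 14.1% between cocktail libraries.

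Klf6 (chr13:5861489-5870393, plus strand), a broadly expressed gene that is known to respond early to injury and growth factors, had a lowest value of 22.0, a median of 31.7 and a highest value of 35.6 FPKM in control, and 36.1, 42.5 and 51.1 FPKM in cocktail libraries. The values of the conditions did not overlap, but only just, since the lowest cocktail and the highest control value were 36.1 and 35.6 FPKM. The ratio within mice was 1.12 in mouse 6 to 1.90 in mouse 1, where the control value was the lowest of all. The log2 fold change was 0.50 (SE 0.076), with 1574 to 3549 reads per library.

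Klf5 (chr14:99298691-99313409, plus strand) is known for driving proliferation in gut epithelium and smooth muscle. Its FPKM was 4.86 at the lowest, 5.29 at the median and 5.70 at the highest in control, and 6.05, 7.00 and 9.25 in cocktail libraries, without overlap. The cocktail values spread far more, with a coefficient of variation of 18.3% against 5.88% in control. The ratio within mice was 1.84 in mouse 5 and 1.78 in mouse 4, but 1.09 in mouse 6 and 1.10 in mouse 1. With 86 to 201 reads per library, the counting error alone was 7.05% to 10.8% of a value, so the smallest of these ratios are of the size of this error. The log2 fold change was 0.41 (SE 0.090). The hemispheres of mouse 6 had the smallest ratio of the 6 mice for Klf4, Klf6 and Klf5, while the largest was in mouse 1 for Klf4 and Klf6 and in mouse 5 for Klf5.

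Klf2 (chr8:72319062-72321654, plus strand), the flow-responsive factor of endothelial cells, had 8.43, 11.9 and 14.1 FPKM as lowest, median and highest value in control and 10.7, 12.2 and 15.0 FPKM in cocktail libraries. Its values overlapped, and the mice went in opposite directions: the ratio was 0.782 in mouse 2 and 0.847 in mouse 1, 1.04 in mouse 6, and 1.28 to 1.42 in mice 3, 4 and 5. The counting error of a single value was 5.38% to 8.14%, and a ratio carries the error of both of its values. The log2 fold change was 0.12 (SE 0.101). Klf7 (chr1:64035671-64121389, minus strand), a gene of developing and regenerating neurons, had 9.29, 11.0 and 12.2 FPKM in control and 9.92, 10.5 and 10.8 FPKM in cocktail libraries. Its cocktail values all lay within the range of the control values, and the log2 fold change was -0.07 (SE 0.053).

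**Figure D2:**
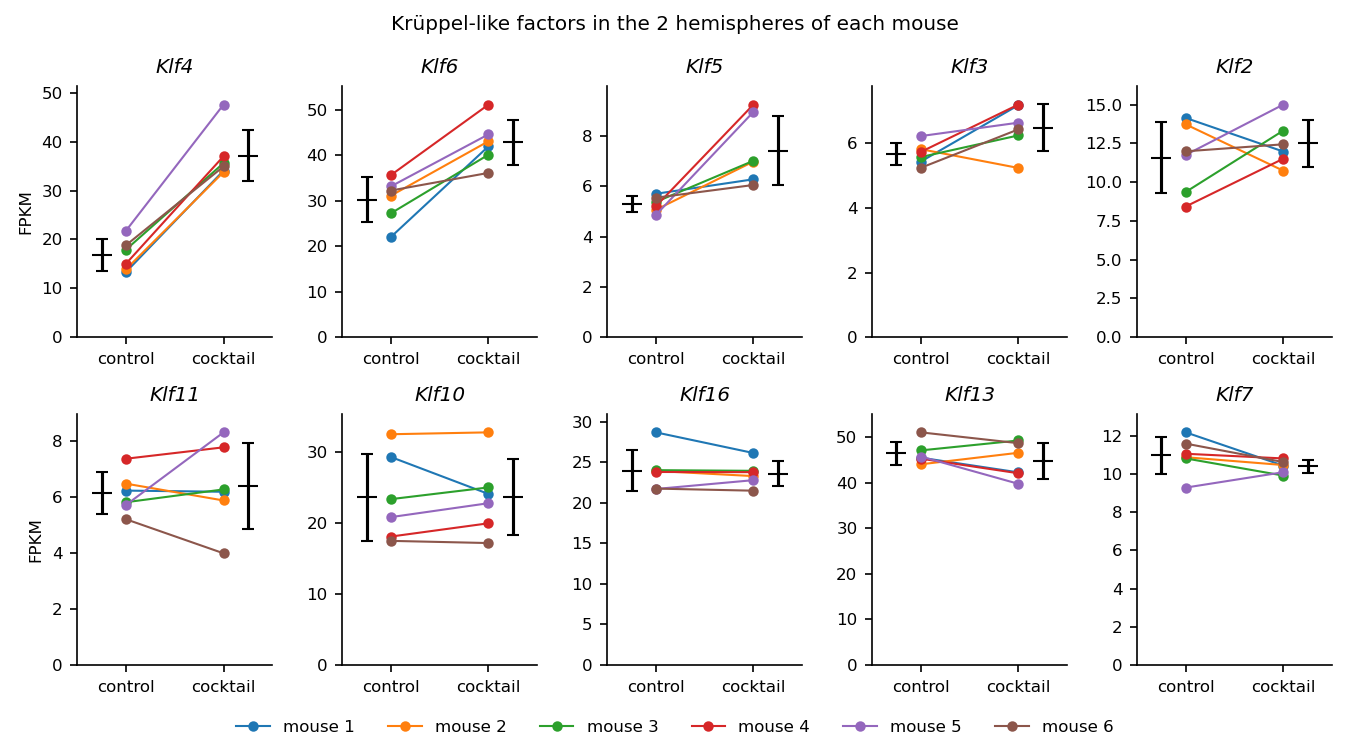
FPKM of the 10 genes in control and cocktail hemispheres, each line joining the hemispheres of 1 mouse, with the mean and SD of each condition (n = 6) in black beside the points and the genes ordered by log2 fold change. The lines of Klf4, Klf6 and Klf5 all rise, those of Klf2 cross, and those of Klf10 lie apart between mice and, except for mouse 1, nearly level.

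Klf3 (chr5:64803523-64830129, plus strand), the repressor that recruits CtBP, had 5.24, 5.65 and 6.22 FPKM as lowest, median and highest value in control and 5.24, 6.53 and 7.20 FPKM in cocktail libraries. It was higher in the cocktail hemisphere of 5 of 6 mice and lower in mouse 2, and its log2 fold change was 0.16 (SE 0.067). The 127 to 278 reads behind its values give a counting error of 6.00% to 8.87%. Exons of Klf3 overlap a noncoding gene, Gm20033, on the opposite strand in GENCODE M21, and those of Klf7 overlap Gm13748 and Gm26649 on the opposite strand. The library kit keeps the strand, but the strand setting of the FPKM estimate is not given in the sources used here.

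The group that binds Sin3 had log2 fold changes between -0.05 and 0.03. Klf10 (chr15:38291464-38300711, minus strand), known as a gene induced early by TGF-beta, had 17.5, 22.1 and 32.5 FPKM as lowest, median and highest value in control and 17.2, 23.4 and 32.8 FPKM in cocktail libraries. Mice differed more than hemispheres, since the means of the 6 mice had an SD of 5.57 FPKM, and the differences within mice an SD of 2.73 FPKM, with a mean of 0.0392 FPKM. Mouse 2 had the highest Klf10 value of both conditions and mouse 6 the lowest of both, while mouse 1 went from 29.3 to 24.1 FPKM. Klf11 (chr12:24651371-24662782, plus strand), the closest relative of Klf10, had 5.20, 6.01 and 7.36 FPKM in control and 3.98, 6.22 and 8.30 FPKM in cocktail libraries, and was higher in 3 mice and lower in 3. Its ratio within mice was 0.766 in mouse 6 to 1.45 in mouse 5, a spread like that of Klf2.

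Klf13 (chr7:63886351-63938915, minus strand), which is known to drive the late induction of Ccl5 in T cells, had 44.0, 45.6 and 51.0 FPKM in control and 39.7, 44.4 and 49.2 FPKM in cocktail libraries. Klf16 (chr10:80567121-80577296, minus strand), described as a regulator of dopamine receptor genes, had 21.7, 23.9 and 28.7 FPKM in control and 21.5, 23.6 and 26.2 FPKM in cocktail libraries. Both overlapped between the conditions, with log2 fold changes of -0.05 for Klf13 (SE 0.049) and -0.02 for Klf16 (SE 0.045). These standard errors, which reflect the spread of the differences within mice and the variance trend of the fit, are the smallest of the 10 genes.

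**Figure D3:**
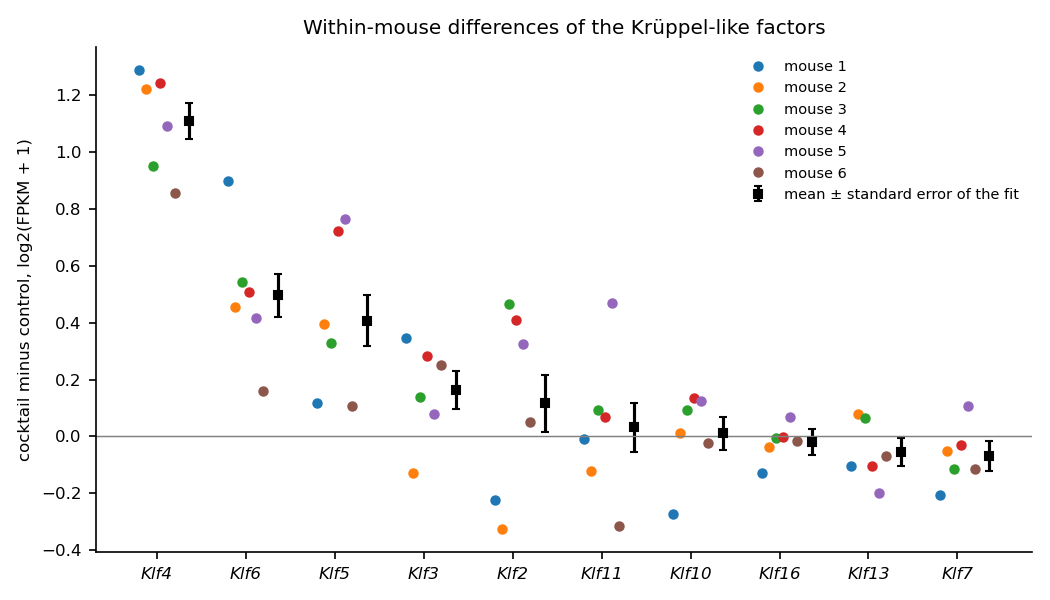
Difference between the cocktail and the control hemisphere of each mouse on the log2(FPKM + 1) scale (colored points), with the mean and its standard error from the fit with mouse as a block (black). Klf4 lies at 1.11, Klf6 at 0.50 and Klf5 at 0.41. The points of Klf2 spread from -0.33 in mouse 2 to 0.47 in mouse 3, and those of Klf11 from -0.31 in mouse 6 to 0.47 in mouse 5.

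In the fit of all loci with limma, with mouse as a block and Benjamini-Hochberg adjustment, 2 of the 10 genes, Klf4 and Klf6, were called at an adjusted p under 0.05, both higher, against 1.5% of all loci called in either direction, 1.22% called higher and 0.274% called lower. For 3 of the 10 genes, Klf4, Klf5 and Klf6, the cocktail values lay above all control values, against 0.715% of all loci. Since the genes were chosen on this contrast, nothing is read from these shares. The median log2 fold change was 0.07 over the 10 genes and 0.0076 over all loci tested. Klf4 and Klf6 were called under all 13 alternative settings. Klf5 was called under 3 of the 13, without the block and without mouse 1 or mouse 6.

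Over the 12 libraries, the profile of Klf4 was most like those of Ier2, Fos, Cd14, Ptgs2 and Junb, all genes outside the 10. The root mean square difference between the profiles, each centered on its own mean of log2(FPKM + 1), was 0.14 for Ier2, 0.142 for Fos, 0.157 for Cd14, 0.17 for Ptgs2 and 0.191 for Junb, against a median of 0.591 over all loci tested. The profiles hold the difference between conditions on which the 10 genes were chosen, so genes with a fold change of like size lie near Klf4. The log2 fold changes of these genes were 0.857 (Junb) to 1.04 (Ptgs2), against 1.11 for Klf4. Shared regulation was not tested. Ier2, Fos and Junb encode nuclear immediate-early proteins, Cd14 a coreceptor for lipopolysaccharide, and Ptgs2 the inducible cyclooxygenase. The nearest of the other 9 Krüppel-like factors was Klf6, at 0.375. The profile of Klf10 was nearest to those of Mvd (0.139), Pcf11 (0.142) and Dyrk3 (0.145), against a median of 0.345. That of Klf2 was nearest to Tcn2 (0.131), Frmd8 (0.137) and Ccdc23 (0.138), against a median of 0.260. These likenesses are descriptions of the same 12 libraries.

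None of the other tested genes of the family was called. Of the 8 other Klf genes listed, 7 had a locus (Klf18 was not analysed here) and 4 were tested (Klf8, Klf9, Klf12 and Klf15), of which 0 were called by limma and 0 by voom on the recovered reads, and 1 had an unadjusted p under 0.05. Klf9, which glucocorticoids and thyroid hormone induce in neurons, had the highest level of any Klf gene, at 94.5 ± 10.7 FPKM in control against 98.1 ± 17.0 FPKM in cocktail libraries (SD, n = 6 each), and its log2 fold change was 0.04 (SE 0.047, limma adjusted p = 0.887). Klf15, known as a glucocorticoid target, had 5.97 ± 0.553 FPKM in control and 5.94 ± 0.502 FPKM in cocktail libraries. Klf12, a repressor related to Klf3, was the 1 gene with an unadjusted p under 0.05, and is named for that after its value was seen, like Sp9, Srf and Mapk7 in what follows. It had 2.59 ± 0.481 FPKM in control and 3.38 ± 0.905 FPKM in cocktail libraries, a log2 fold change of 0.27 (SE 0.110, limma adjusted p = 0.515), and was higher in 5 of 6 mice. Klf14, Klf1 and Klf17 were below the minimum, with mean FPKM in control of 0.224, 0.0497 and 0.00781. Of the 9 Sp genes, 5 were tested, 0 were called by limma or voom and 1, Sp9, had an unadjusted p under 0.05. Sp9 had 1.80 ± 0.345 FPKM in control against 2.26 ± 0.398 FPKM in cocktail libraries (log2 fold change 0.22, SE 0.088, limma adjusted p = 0.497). Sp3, the most abundant, had 12.8 ± 1.38 FPKM in control and 13.0 ± 0.670 FPKM in cocktail libraries, and Sp2, the next, had a log2 fold change of -0.07.

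Genes that act on the family were also not called. The list of 22 held the kinases and factors that drive Klf2 and Klf4 (Mapk7, which encodes Erk5, Map2k5, the Mef2 genes and Srf), corepressors and coactivators, and ubiquitin ligases that remove Klf proteins. Of the 21 tested, 10 were higher and 11 lower, 0 were called by limma or voom, and 2 had an unadjusted p under 0.05. These were Srf, at 24.5 ± 1.02 FPKM in control against 27.8 ± 1.24 FPKM in cocktail libraries (log2 fold change 0.18, SE 0.049, limma adjusted p = 0.148, higher in 6 of 6 mice, without overlap), and Mapk7, at 7.76 ± 0.883 against 6.78 ± 0.540 FPKM (log2 fold change -0.17, SE 0.056, limma adjusted p = 0.299, lower in 6 of 6 mice). Mef2c and Ctbp1, the most abundant, had 114 ± 24.6 and 77.7 ± 5.66 FPKM in control and 111 ± 8.78 and 79.0 ± 5.54 FPKM in cocktail libraries.

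Of 23 genes known as targets of a Krüppel-like factor, 19 were tested, and 3 were called, 1 higher and 2 lower, against 1.5% of all loci. The list was chosen with earlier results of these data known, so nothing is read from this share or from those below. The 2 lower genes were Sele and Ccl5, which encode an adhesion molecule of activated endothelium and a chemokine. Sele had 1.43 to 3.15 FPKM in control and 0.444 to 1.17 FPKM in cocktail libraries, without overlap and lower in 6 of 6 mice, and its log2 fold change was -0.72 (SE 0.073, limma adjusted p = 0.000191), on 26 to 183 reads per library. It was called under all 12 alternative settings that gave it a value, with limma adjusted p of 0.00018 to 0.00836. The size of its fold change depended on the setting, with a log2 fold change of -1.25 at a pseudocount of 0.1 and -1.34 with voom. Ccl5 had 0.881 to 6.25 FPKM in control and 0.427 to 3.06 FPKM in cocktail libraries, with overlap and lower in 5 of 6 mice, and its log2 fold change was -0.56 (SE 0.110, limma adjusted p = 0.0259), on 4 to 52 reads per library. At a pseudocount of 0.1 and with voom the log2 fold change of Ccl5 was -0.89 and -0.94. The higher gene was Smad7, an inhibitor of TGF-beta signaling, at 8.16 ± 1.03 FPKM in control against 9.76 ± 0.980 FPKM in cocktail libraries (SD, n = 6 each), with overlap, and its log2 fold change was 0.24 (SE 0.049, limma adjusted p = 0.0365), with the cocktail hemisphere higher in 6 of 6 mice. Ccl5 was called under 5 of 12 and Smad7 under 5 of 13 alternative settings, with limma adjusted p from 0.00311 to 0.999 and from 0.0304 to 0.536. Both lost their call without the filter, without the block, with voom and without any single one of mice 2, 3, 5 and 6 (Smad7 also without mouse 4). Of the 19 tested, 8 had an unadjusted p under 0.05, against 968 of the 12032 loci tested. Those of the 8 that were not called are named after their values were seen. Nos3, S1pr1 and Cdkn1a were higher, with log2 fold changes of 0.23, 0.12 and 0.11. Vcam1 and Tgfbr1 were lower, with log2 fold changes of -0.18 and -0.17. The target list had a median log2 fold change of -0.005. Ntrk2 and Gap43, its most abundant genes that were not called, had 108 ± 7.10 and 58.1 ± 13.5 FPKM in control against 108 ± 6.85 and 61.0 ± 9.55 FPKM in cocktail libraries, and for Ntrk2 the estimate had an OK status in 4 of the 12 libraries and had failed in the others.

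**Figure D4:**
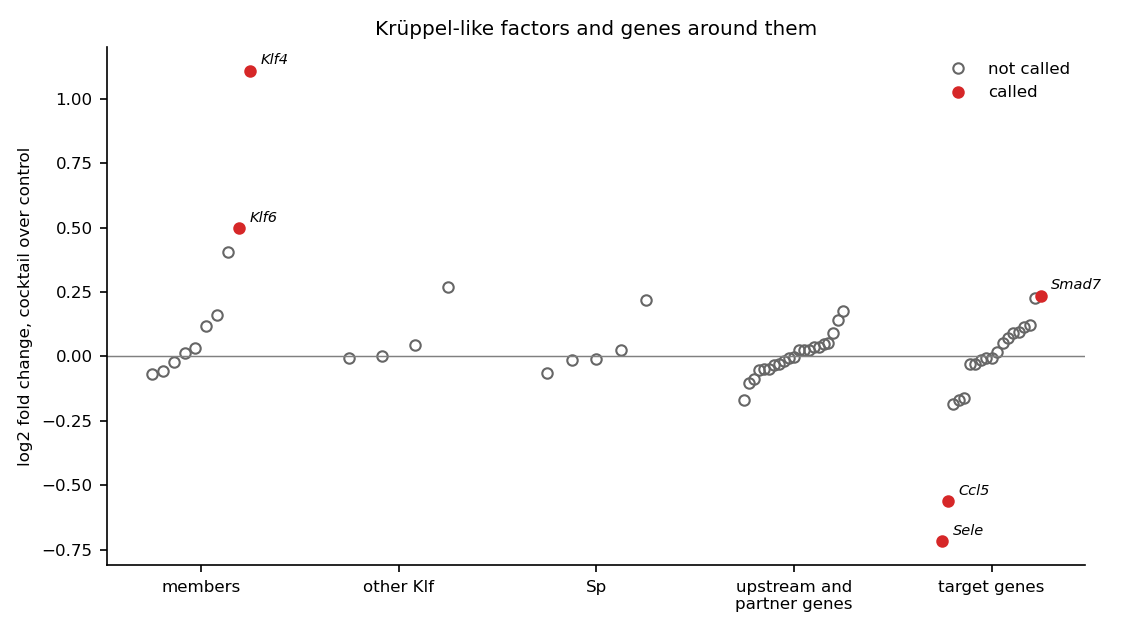
Log2 fold change of cocktail-treated against control slices for each tested gene of the 10 Krüppel-like factors, the other Klf genes, the Sp genes, the upstream and partner genes and the target genes, with genes called by limma in red. Klf4 (1.11) and Klf6 (0.50) are the only called genes of the first 4 groups, and Sele (-0.72), Ccl5 (-0.56) and Smad7 (0.24) those of the targets.

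The tissue carried the markers of cortex, with summed FPKM of 5 excitatory neuron markers of 1315 to 1453 in control and 1245 to 1426 in cocktail libraries, and 3 choroid plexus markers of at most 0.321. In no list of markers was a gene called by limma. The sums were 479.8 to 540.2 and 510.6 to 556.9 for 6 inhibitory neuron markers, 220.9 to 282.6 and 237.6 to 307.5 for 5 astrocyte markers, 1846 to 2406 and 2149 to 2487 for 5 oligodendrocyte markers, and 0.246 to 2.40 and 0.715 to 2.80 for the 4 blood markers with a locus, in control and cocktail libraries. All 6 inhibitory neuron and all 5 oligodendrocyte markers had a log2 fold change above 0, against 54.4% of all loci tested. Both sums were higher in the cocktail hemisphere of 5 of 6 mice, with 0 of these markers at an unadjusted p under 0.05. Because Klf2 and Klf4 are also made by vessels, microglia and meninges, their markers are given beside them. The 6 endothelial markers summed to 59.4 to 65.4 FPKM in control and 57.2 to 69.2 FPKM in cocktail libraries, higher in the cocktail hemisphere of 4 of 6 mice, and 0 of 6 were called. Among them 4 were higher and 2 lower, and 1, Cdh5, had an unadjusted p under 0.05, with a log2 fold change of 0.18 (SE 0.053, limma adjusted p = 0.197). Cdh5 and Pecam1 were higher in 6 of 6 mice. The 2 lower markers were Ly6c1, with a log2 fold change of -0.12 and lower in 5 of 6 mice, and Tek, with -0.05 and lower in 3 of 6. For the 6 microglia markers the sums were 54.9 to 63.3 and 54.1 to 65.5 FPKM, higher in 4 of 6 mice, with 0 of 6 called. Of these markers 3 were higher and 3 lower, with log2 fold changes from -0.20 (Cx3cr1) to 0.10 (C1qa). The 6 mural cell markers, of which 4 were tested and 0 called, summed to 25.8 to 32.1 and 27.4 to 37.4 FPKM, higher in 3 of 6 mice. The 4 meningeal markers summed to 10.3 to 16.7 FPKM in control and 13.6 to 18.0 FPKM in cocktail libraries, higher in the cocktail hemisphere of 5 of 6 mice. All 3 that were tested had an unadjusted p under 0.05, against 968 of the 12032 loci tested, and none was called by limma. The part of these cell types in the differences of the Klf genes was not tested.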

How the data were processed

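Poly-A RNA of 12 libraries, 6 control and 6 cocktail hemispheres of the same 6 mice, was sequenced with single reads. Per the submitters' processing notes and the methods, reads of ribosomal RNA were screened out by BWA 0.6.1, and the authors aligned the others to mm10 with TopHat 1.4.1 and 1 placement per read, and deposited FPKM values with a confidence interval from Cufflinks 1.3.0 with bias correction. A deposited table of the authors' own DESeq2 comparison, with mean counts, fold changes, their errors, p-values and pooled FPKM means, was not used.

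The members, the gene lists and the tests were chosen with earlier results of these data known. The test was run with limma 3.58.1 (R 4.3.3) on log2(FPKM + 1), for the 12032 loci whose FPKM averaged 1 or more. Its model held treatment and, as a block, mouse, and the variance was allowed a trend with level. Calls were made at a Benjamini-Hochberg adjusted p under 0.05. The fit was tested on simulated data. Mouse numbers in the labels pair the hemispheres. Deviations from the condition means had a correlation across loci of 0.216 to 0.406 within mice (median 0.337, 6 pairs). Between mice it was -0.42 to 0.445 (median -0.071, 30 pairs). Reads of any 2 libraries of a condition differed by far more than sampling noise, so none was a repeat.

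The reads behind each FPKM were recovered from its interval, which spans 2 Poisson standard deviations on each side. Of 36048 values under 20 reads, 83.4% were whole to within 0.05. Values with an OK status summed to 10600193 to 19768184 reads in control and 13539422 to 17506709 in cocktail libraries, and 259 values had a failed estimate. Counting errors come from the recovered reads and cover counting alone. The 13 alternative settings were a pseudocount of 0.1, no filter, a mean FPKM of at least 5, no mouse block, median of ratios scaling, no variance trend, voom on the recovered reads, and leaving out each mouse. Promoters came from RefSeq, and exon overlaps and transcript lengths from GENCODE M21. All genes called in a list were named, up to 4, with up to 2 others of high level. The planned comparison of protein sequences was not made. Figures were drawn with matplotlib 3.10.9.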

Additional observations from a re-analysis of the deposited data

Results flagged for a closer look

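In 2 of 30 sets of 6 values, a single value stood apart from its set, and about 1.5 such sets arise by chance. For Klf4 in the cocktail, mouse 5 reached 47.6 FPKM while the other mice ranged from 33.8 to 37.0, which leaves a gap of 0.765 of the whole range. Mouse 5 also had the highest Klf4 value of the control libraries (21.8 FPKM), and its within-mouse log2 difference of 1.09 lay among those of the other mice. For Klf16 in control aCSF, mouse 1 reached 28.7 FPKM while the other mice ranged from 21.7 to 24.1, a gap of 0.668 of the range, and the same mouse was highest in the cocktail (26.2 FPKM).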

How the results depend on the processing

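The number of loci called was 180. It was 88 with no replicate block, where the hemispheres were not treated as paired, and 118 with voom on the recovered reads. With both hemispheres of 1 mouse left out, the lowest number was 104 (mouse 4) and the highest 183 (mouse 6). Of the target genes 3 were called, and 1 with no filter, with a mean FPKM of at least 5, with no replicate block and with voom, with a range of 1 to 3 without single mice. The cause was not tested, except that the stricter filter gave no value for Sele and Ccl5 and that fewer mice were fitted. Counts of called members (2 to 3) and of called other Klf, Sp, upstream and partner genes (0) stayed within 1.5 times under all 13 settings. No log2 fold change of a member moved by more than the SD between mice. Klf4 ranged from 1.07 to 1.16 and Klf6 from 0.417 to 0.565. The signs of Klf10, Klf11 and Klf16, all close to 0, changed under 4, 1 and 1 of the 13 settings. Not every other named gene was followed across the settings, and Klf8, for example, was not. Of those followed, 6 that were not called changed sign: with voom, Mef2c was at 0.02 and Ctbp1 at -0.053, and without single mice the ranges were -0.043 to 0.025 for Klf15, -0.05 to 0.051 for Sp3, -0.122 to 0.045 for Mef2c, -0.004 to 0.047 for Ctbp1, -0.034 to 0.017 for Ntrk2 and -0.008 to 0.182 for Gap43. Sele (-1.34) and Ccl5 (-0.94) had their largest fold changes with voom. Few reads limit several of these values, with as few as 4 in a library for Ccl5, 26 for Sele and 86 for Klf5.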
